A study of Mus musculus with 6 samples.

Results

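The genes described here encode histones, the proteins around which DNA is wound. They are the 75 of 13203 genes in the deposited table whose symbols start with Hist1h, Hist2h, Hist3h, Hist4h, H2af, H3f3 or H1f. Of these, 64 carry a Hist symbol and are called replication-dependent below, and 11 carry another symbol and are called variants. The same prefixes name 70 and 21 genes in the GENCODE M21 annotation, so some annotated histone genes were not analysed here. Why each is absent from the deposited table is not given. All 75 passed the filter on low values.

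The samples are total RNA, depleted of ribosomal RNA, from whole mouse kidneys of embryonic stage E17.5. The 3 control kidneys carried floxed Brg1 alleles (Brg1 flx/flx), and the 3 mutant kidneys carried Six2Cre with the same floxed alleles (Six2Cre Brg1flx/flx). Brg1, encoded by Smarca4, is the motor subunit of SWI/SNF chromatin remodelling complexes, and the series asks how it acts on the growth and differentiation of nephron progenitors. Six2 is expressed in those progenitors, so cells of other kidney lineages should keep their Brg1 alleles. No control with Six2Cre alone is among the samples, so Cre and the deletion cannot be told apart. Nothing in the labels says whether the 3 kidneys of a group came from separate embryos, so p-values measure the spread between these samples.

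The core of the nucleosome holds pairs of H2A, H2B, H3 and H4, and the linker histone H1 binds where DNA enters and leaves it. Replication-dependent histone genes lie in clusters with many near-identical copies and are transcribed mainly in S phase, when new DNA is packed. Their mRNAs usually end in a conserved stem-loop in place of a poly(A) tail, and the protein Slbp binds that stem-loop. Variant genes such as H2afz (H2A.Z) and H3f3a and H3f3b (H3.3) are single genes with introns and polyadenylated mRNAs, and they are transcribed through the cell cycle. Depletion of ribosomal RNA keeps both kinds of mRNA in a library, whereas selection of poly(A) RNA loses most of the first kind.

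The stem-loops are shown because they set the replication-dependent genes apart from the variants. In each line the 6 bases of either arm are in capitals and the loop in lower case, written 5′ to 3′ as DNA from GENCODE M21 transcripts of mm10.
H1, H2A, H2B and H3 genes, commonest form: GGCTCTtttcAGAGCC
H2B and H3 genes, another form: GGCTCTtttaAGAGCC
H4 genes, commonest form: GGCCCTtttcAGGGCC
H4 genes Hist1h4i and Hist2h4: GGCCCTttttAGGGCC
H2afx, the only variant with a match: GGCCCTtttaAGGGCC

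The motif searched was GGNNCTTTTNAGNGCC on the sense strand, and 55 of 141767 annotated transcripts (0.0388%) held it. It was found in the longest transcript of 39 of the 64 replication-dependent genes and of 1 of the 11 variants. The replication-dependent H1, H2A, H2B and H3 genes in these lines shared the arms of the first line, and the H4 genes and H2afx had those of the third. Many of these genes are annotated over little more than their coding region (the shortest replication-dependent transcript is 312 bases), so a missing match says only that the letters are not in the annotated transcript. Among the 40 members with the stem-loop 15 rose and 17 fell, so genes with the motif were found on both sides. The motif was not required to end the transcript. The annotated transcript ran on past it by 3 bases in Hist1h4m and by 4884 bases in Hist1h1d.

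Coverage is given in kb of sequenced bases over a gene, after the authors scaled every library to a common total. Unscaled totals were estimated from the step between the lowest values of each library. They were 726 to 1126 Mb in control (con1, con2 and con3) and 934 to 1209 Mb in mutant libraries (mut1, mut2 and mut3). Means are given ± SD with n = 3 per group. Smarca4 itself had 434, 419 and 371 kb in the control and 316, 333 and 268 kb in the mutant libraries (log2 fold change -0.42, SE 0.10, limma adjusted p = 0.00481). Con1 and mut3 shared a pattern in 5 histone genes that does not follow genotype, which is described below. Some counts, but not all, are given with and without these libraries.

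At a limma adjusted p under 0.05, 46.1% of all genes were called (21.5% higher and 24.6% lower in the mutant kidneys), with a median log2 fold change of -0.03. Of the 64 replication-dependent genes 21 rose, 26 fell and 17 did not pass, with a median of -0.15. Of the 11 variants 1 rose, 4 fell and 6 did not pass, with a median of -0.16. Within the replication-dependent class the direction went with the histone type. H2A and H2B genes were mostly lower in the mutant kidneys and H3 and H4 genes mostly higher, a grouping that was chosen after the values were seen. Of 34 H2A and H2B genes 24 fell and 1 rose (median -0.54), and of 25 H3 and H4 genes 19 rose and 1 fell (median 0.35).

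The counts of falls moved more than those of rises when gene length and GC content were taken into account. In an adjusted fit, smooth trends of each library's values on exon length and GC content were removed. The trends were fitted over the 13117 genes with both annotations, the histone genes and snoRNA genes among them. In this fit 8 of the 34 H2A and H2B genes fell and 4 rose (median -0.16). Of the 25 H3 and H4 genes 21 rose and none fell (median 0.70). The median of the replication-dependent class changed sign, to 0.16 with 26 genes higher and 8 lower, and that of the variants was -0.04 with 3 higher and 3 lower. The distance between the medians of the H3 and H4 genes and of the H2A and H2B genes was 0.89 before and 0.86 after adjustment on the log2 scale. Values of this adjusted fit are given below for many, but not all, of the genes whose call or size it changed. A gene without such a value was not necessarily stable.

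**Figure D1:**
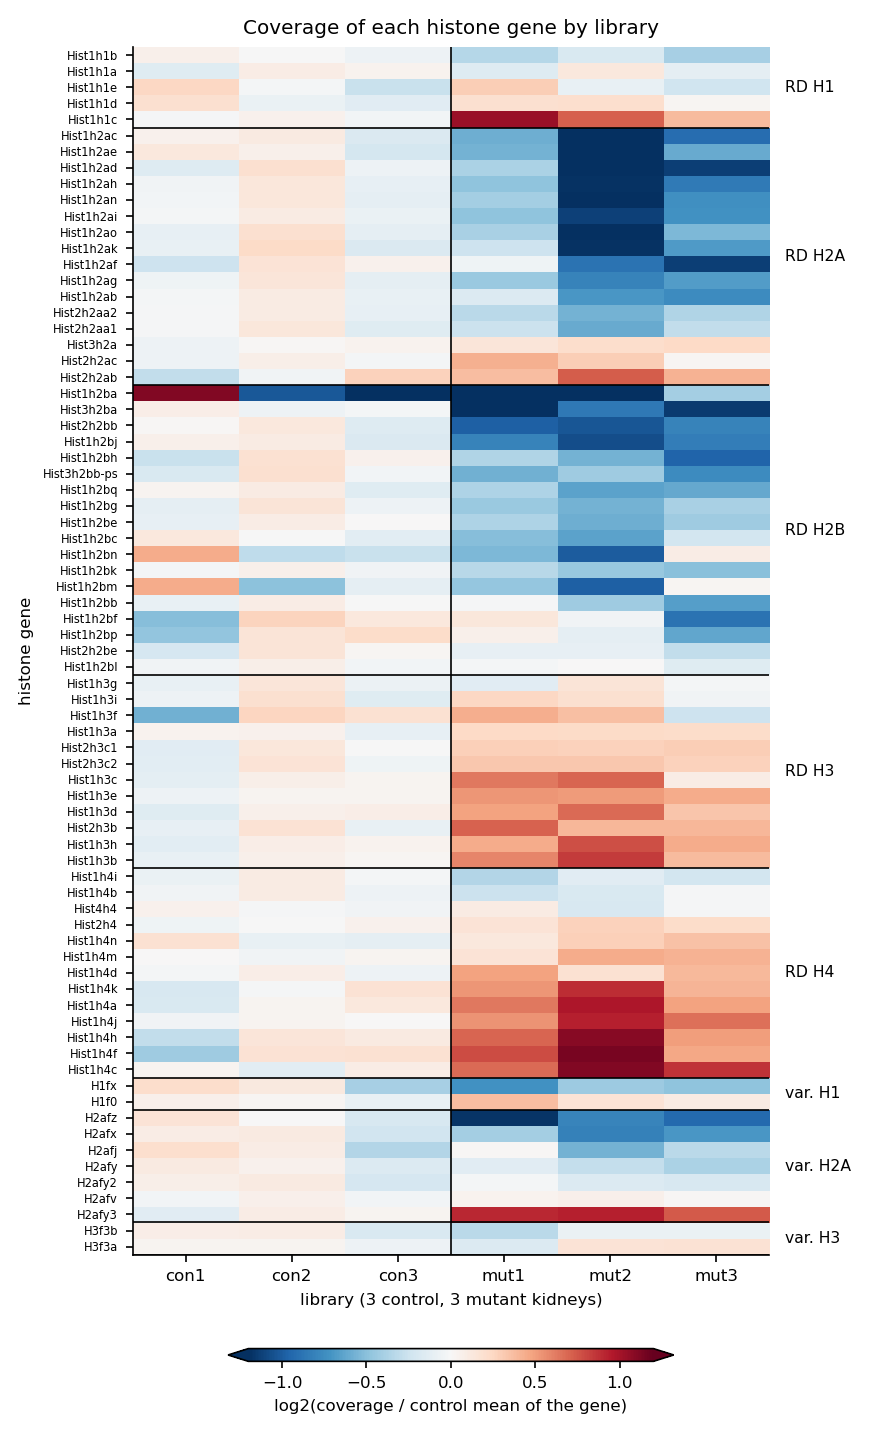
Coverage of the 75 histone genes (rows, grouped by class and type) in the 6 libraries (columns), as log2 of the value over the gene's control mean; RD, replication-dependent; var., variant; values beyond 1.2 in either direction have the end colour. Most H2A and H2B genes are blue and most H3 and H4 genes red in all 3 mutant libraries, and Hist1h2ba, Hist1h2bn, Hist1h2bf, Hist1h2bp and Hist1h3f show con1 and mut3 apart from the rest.

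**Figure D2:**
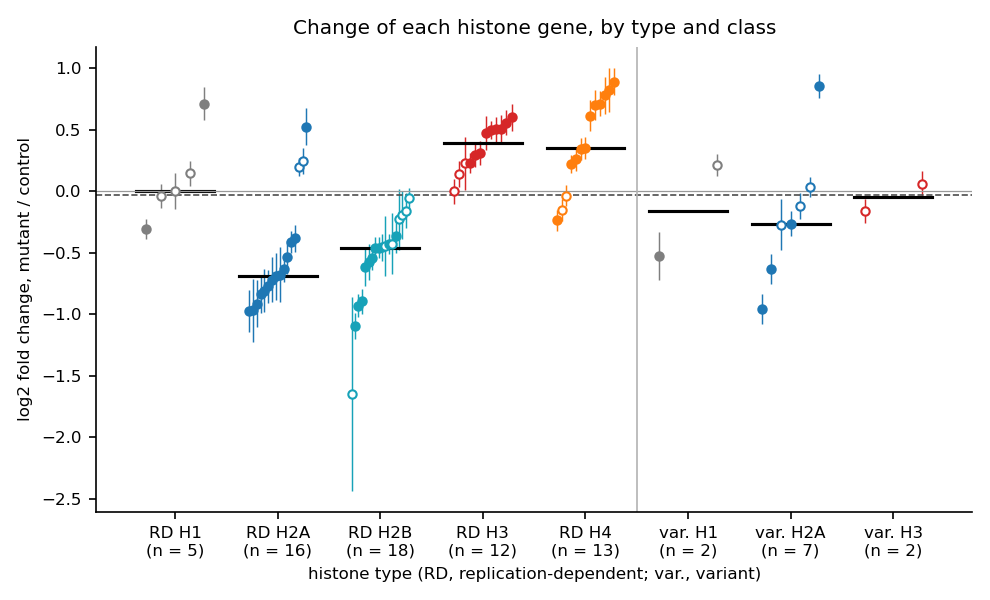
Log2 fold change of each histone gene (points, with limma SE as bars) by type and class; filled points passed a limma adjusted p of 0.05, open points did not, black lines are medians and the dashed line is the median of all genes (-0.03). H2A and H2B points lie mostly below the dashed line (medians -0.68 and -0.46), H3 and H4 points mostly above it (medians 0.39 and 0.35).

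Summed over its genes, the replication-dependent class took a similar share of all coverage in both groups. It held 20.1, 21.6 and 20.3 Mb in con1 to con3 and 22.2, 22.3 and 20.0 Mb in mut1 to mut3, or 2.12 ± 0.083% and 2.20 ± 0.131% of coverage, and the groups overlapped. The mutant mean was 1.04 times the control mean. The balance within the class moved. H2A and H2B genes together held 9.02, 9.73 and 8.74 Mb in the control and 7.07, 5.96 and 6.38 Mb in the mutant libraries, 0.706 of the control mean. H3 and H4 genes together held 7.07, 7.95 and 7.82 Mb in the control and 10.4, 11.8 and 9.84 Mb in the mutant libraries, 1.41 times the control mean. Neither pair of groups overlapped.

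The ratio of H3 and H4 coverage to H2A and H2B coverage was 0.784, 0.817 and 0.895 in con1 to con3 and 1.47, 1.98 and 1.54 in mut1 to mut3. Its mean rose 2.0-fold, from 0.832 ± 0.057 to 1.67 ± 0.277, and every mutant library lay above every control library. In the members with at least 50% unique sequence (defined below) the same ratio went from 1.54 ± 0.071 to 3.03 ± 0.466. These are ratios of RNA coverage over genes of unequal length, not of histone proteins.

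**Figure D3:**
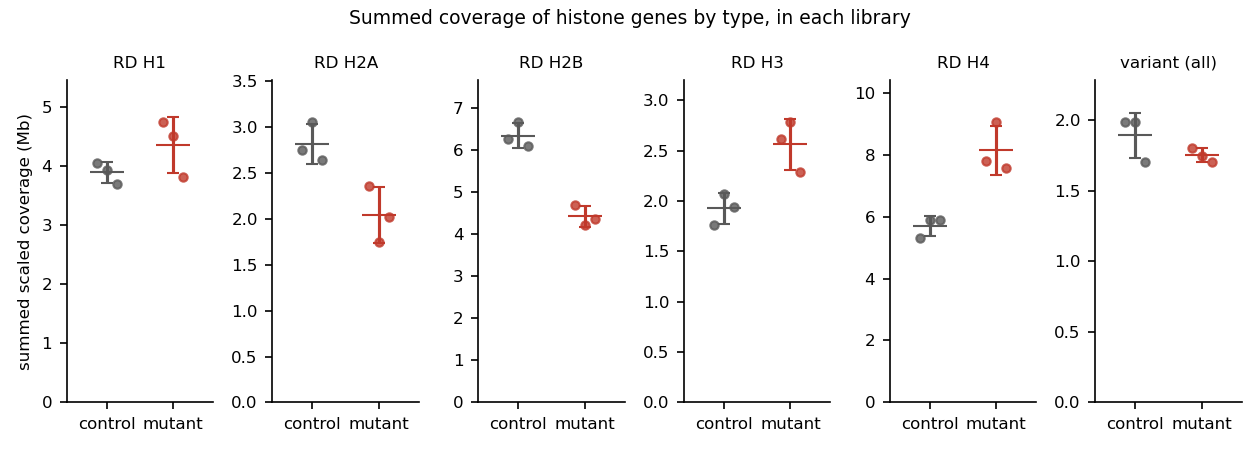
Summed scaled coverage (Mb) of replication-dependent (RD) genes of each type and of all variants in each library (points), with the group mean and SD (bars); every axis starts at 0. H2A and H2B sums are lower in all 3 mutant libraries and H3 and H4 sums higher, while H1 and the variants overlap between the groups.

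Of the 16 replication-dependent H2A genes 13 fell, 1 rose and 2 did not pass. In 12 of them the values lay with all mutant libraries below all control libraries, as in 29.8% of all genes (56.4% did not overlap in either direction). All 11 H2A genes of the Hist1 cluster fell, with changes from -0.97 to -0.54 on the log2 scale. In the length- and GC-adjusted fit all 11 remained negative, from -0.82 to -0.07, but 3 passed (Hist1h2ac, Hist1h2ad and Hist1h2ae), and over all 16 H2A genes 3 fell and 3 rose. Hist1h2ac had 177, 184 and 152 kb in the control and 114, 63.3 and 90.4 kb in the mutant libraries, so the groups did not overlap and mut2 was lowest (fold change -0.97, SE 0.17, limma adjusted p = 0.000837). Hist1h2ae had 142, 135 and 112 kb in the control and 88.0, 38.4 and 85.6 kb in the mutant libraries (-0.97, SE 0.25, limma adjusted p = 0.00863). Both are among the 3 H2A genes with at least 50% unique sequence. Hist1h2ad, Hist1h2ah and Hist1h2an, the next largest falls, went from 116 ± 14.4 to 63.6 ± 22.2 kb (log2 fold change -0.91, SE 0.19), from 136 ± 11.7 to 77.3 ± 18.8 kb (-0.84, SE 0.15) and from 105 ± 9.25 to 61.6 ± 18.1 kb (-0.81, SE 0.18). In each of these 3 genes mut1 was the highest and mut2 the lowest mutant library. Adjusted for length and GC, Hist1h2ah (-0.25, limma adjusted p = 0.0634) and Hist1h2an (-0.19, limma adjusted p = 0.182) did not pass.

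Outside Hist1 the H2A genes differed among themselves. Hist2h2aa1 and Hist2h2aa2, mirrored copies on chromosome 3, fell by 0.38 and 0.41 on the log2 scale. The ratio of their coverage was 0.97 to 1.05 in every library, and reads of such copies cannot be told apart. Hist2h2ab rose, with 28.4, 33.8 and 42.3 kb in the control and 45.1, 57.7 and 46.3 kb in the mutant libraries (0.53, SE 0.15, limma adjusted p = 0.0147). It did not pass without con1 (adjusted p = 0.068) or mut2 (0.0536). Hist2h2ac and Hist3h2a, at 0.25 and 0.20, did not pass. With length and GC adjusted, these 3 genes were the H2A genes that rose (0.99, 0.57 and 0.44). By coverage per base of annotated exon, the highest H2A genes in control kidneys were Hist2h2aa2 (712) and Hist1h2ab (682), which fell by 0.41 and 0.54. Neither passed when adjusted for length and GC, Hist2h2aa2 at -0.08 (limma adjusted p = 0.422) and Hist1h2ab at -0.11 (0.507), nor did Hist2h2aa1 (-0.13). Hist1h2ab also did not pass when con1 and mut3 were both left out (limma adjusted p = 0.0871).

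Of the 18 H2B genes 11 fell, none rose and 7 did not pass, and all 18 had a negative sign. Among the 11 is Hist3h2bb-ps (-0.58), which GENCODE annotates as a processed pseudogene. After the length and GC adjustment, 5 of the 18 fell, 1 rose and 14 had a negative sign. Hist3h2bb-ps was then at -0.17 and did not pass (limma adjusted p = 0.458). Hist3h2ba (chromosome 11, 58948920 to 58949533, plus strand, mm10) fell most among called replication-dependent genes. It had 318, 289 and 297 kb in the control and 125, 167 and 136 kb in the mutant libraries (-1.09, SE 0.11, limma adjusted p = 1.32e-05). It is also the only histone gene in the authors' deposited table of lower genes, with their ratio of 0.473 and q-value of 0.00302, both computed on these same libraries. Hist2h2bb (chromosome 3, 96269752 to 96270132, plus strand) had the highest coverage per base of all members, at 3342 in control kidneys. None of its sequence is unique by the measure defined below, and all of it is shared with Gm20628 on the other strand. Since the use of strand is not given, the gene its reads came from is uncertain. Hist2h2bb had 1285, 1389 and 1146 kb in the control and 647, 626 and 729 kb in the mutant libraries, a 1.91-fold fall (-0.93, SE 0.09, limma adjusted p = 1.61e-05). Hist1h2bj fell in the same range, from 289 ± 28.1 to 155 ± 15.2 kb (-0.89, SE 0.10, limma adjusted p = 3.55e-05). In the adjusted fit, all 3 still passed, Hist3h2ba at -0.90, but Hist2h2bb was at -0.31 (limma adjusted p = 0.0265) and Hist1h2bj at -0.47 (limma adjusted p = 0.00167).

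The H2B genes did not all move alike. Hist1h2bl, next to Hist2h2bb in coverage per base among H2B genes, had 462, 498 and 466 kb in the control and 468, 477 and 428 kb in the mutant libraries, which overlapped (-0.05, SE 0.08, limma adjusted p = 0.6). Its value turned positive and passed (0.59, limma adjusted p = 0.0017) when adjusted for length and GC. Hist1h2ba, which encodes the H2B known from testis, had the most scattered values of all members. It had 49.2, 11.2 and 7.87 kb in the control and 5.57, 1.48 and 17.1 kb in the mutant libraries, with con1 and mut3 highest in their groups (-1.65, SE 0.79, limma adjusted p = 0.107).

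Of the 12 replication-dependent H3 genes 9 rose, none fell and 3 did not pass, and in all 9 that rose every mutant library lay above every control library, as in 26.5% of all genes. Hist1h3b rose most, with 171, 190.0 and 186 kb in the control and 273, 326 and 236 kb in the mutant libraries (0.60, SE 0.11, limma adjusted p = 0.00104). Hist1h3h, first in coverage per base among H3 genes (696 in control), had 261, 302 and 295 kb in the control and 391, 488 and 389.8 kb in the mutant libraries (0.56, SE 0.10, limma adjusted p = 0.00103). Hist1h3i, the second, did not pass, at 184 ± 22.6 and 203 ± 20.7 kb (0.14, SE 0.11). Adjusted for length and GC, Hist1h3i passed (0.71, limma adjusted p = 0.00146), and Hist1h3h was at 1.13. The mirrored copies Hist2h3c1 and Hist2h3c2 rose by 0.29 and 0.31 on the log2 scale, with a ratio of 0.97 to 1.04 in every library. The number of H3 genes that rose was 5 without con1 and 6 without con3, and 5 of the 9 passed whichever single library was left out.

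Of the 13 H4 genes 10 rose, 1 fell and 2 did not pass. Hist1h4c (chromosome 13, 23697635 to 23698454, minus strand) showed the largest rise among replication-dependent genes. It had 583, 522 and 608 kb in the control and 915, 1234 and 1044 kb in the mutant libraries, a rise of 1.86-fold (0.89, SE 0.11, limma adjusted p = 6.32e-05). Hist1h4h and Hist1h4f, the H4 genes with the highest coverage per base (1743 and 1552 in control), followed with the same shape across libraries. Hist1h4h had 667, 907 and 884 kb in the control and 1331, 1747 and 1163 kb in the mutant libraries (0.78, SE 0.15, limma adjusted p = 0.0014). Hist1h4f had 451, 683 and 687 kb in the control and 1041, 1339.7 and 837 kb in the mutant libraries (0.82, SE 0.18, limma adjusted p = 0.00321). In both, con1 was the lowest control library and mut2 the highest mutant library. Their adjusted values were larger, at 1.18 and 1.41.

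Hist1h4j, Hist1h4a and Hist1h4k rose by 0.71, 0.70 and 0.61 on the log2 scale (limma adjusted p = 0.000162, 0.000787 and 0.00214), each without overlap between the groups, and Hist1h4k was at 1.501 when adjusted for length and GC. Hist1h4i was the H4 gene that fell, from 307 ± 19.0 to 261 ± 19.7 kb (-0.24, SE 0.09, limma adjusted p = 0.04). It did not pass without any 1 of con1, con2, con3, mut1 or mut3 (adjusted p from 0.0573 to 0.171), nor when adjusted for length and GC (-0.08, limma adjusted p = 0.592). Hist1h4i is named here although the rule for named genes does not include it. The 2 H4 genes that did not pass were Hist4h4, on another chromosome than the clusters, and Hist1h4b, the latter passing as higher when adjusted for length and GC (0.42, limma adjusted p = 0.00312). Whichever single library was left out, 8 of the 10 rises in H4 passed, as did 10 of the 13 falls in H2A and 10 of the 11 in H2B.

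Of the 5 replication-dependent linker histone genes 1 rose, 1 fell and 3 did not pass. Hist1h1c (H1.2; chromosome 13, 23738808 to 23740367, plus strand) had 762, 795 and 749 kb in the control and 1579.8, 1267 and 999 kb in the mutant libraries, a rise of 1.67-fold (0.71, SE 0.13, limma adjusted p = 0.00121). The mutant libraries lay far apart from each other but all above the controls. Hist1h1b (H1.5) had 597, 570.3 and 546 kb in the control and 449, 503 and 433 kb in the mutant libraries (-0.31, SE 0.08, limma adjusted p = 0.00998), a call that was lost without con1 (0.0522) and when adjusted for length and GC (-0.19, limma adjusted p = 0.188). Hist1h1a (H1.1), the H1 gene with the highest coverage per base (1435 in control), was at 1064 ± 88.1 and 1036 ± 111 kb (-0.04, SE 0.10) and did not pass, nor did Hist1h1d (0.14) and Hist1h1e (0.00).

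Within the summed coverage of all 7 H1 genes, Hist1h1c made up 17, 18.2 and 18.3% in the control and 29.9, 25.5 and 23.4% in the mutant libraries. Over the same libraries Hist1h1b went from 13.2 ± 0.138% to 9.6 ± 0.943%. H1f0, the variant H1.0 known from cells that have stopped dividing, kept a similar share, at 9.49 ± 0.080% and 9.84 ± 0.554%. Its coverage of 409 ± 21.9 and 475 ± 49.2 kb did not overlap between groups but did not pass (0.21, SE 0.09, limma adjusted p = 0.0735). It passed without mut3 (0.0494) and when adjusted for length and GC (0.34, limma adjusted p = 0.00528).

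Among the H2A variants, H2afz and H2afx fell most. H2afz (chromosome 3, 137864487 to 137866922, plus strand) encodes H2A.Z.1, which sits in nucleosomes beside transcription start sites. It had 126, 113 and 98.5 kb in the control and 49.6, 64.9 and 58.9 kb in the mutant libraries, a 1.94-fold fall (-0.96, SE 0.12, limma adjusted p = 8.33e-05). H2afv, which encodes the closely related H2A.Z.2, had 92.4, 98.6 and 92.4 kb in the control and 97.2, 98.4 and 95.3 kb in the mutant libraries (0.04, SE 0.08, limma adjusted p = 0.73). The values of H2afz were separated by genotype and those of H2afv overlapped. With length and GC adjusted, H2afz still fell (-0.72) and H2afv passed as higher (0.30, limma adjusted p = 0.0069). The difference between the 2 genes was not tested.

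H2afx (chromosome 9, 44334694 to 44336077, plus strand) encodes H2A.X, which is phosphorylated around DNA breaks. It had 381, 387 and 305 kb in the control and 269.6, 204 and 219.8 kb in the mutant libraries (-0.63, SE 0.12, limma adjusted p = 0.00127). H2afx is also the variant whose transcript holds the stem-loop shown above. H2afy and H2afy2 encode the macroH2A proteins, which are enriched in silent chromatin. H2afy went from 169.5 ± 16.4 to 141 ± 12.3 kb (-0.26, SE 0.10, limma adjusted p = 0.0467), with overlapping groups, and its call was lost without con1, con2, mut2 or mut3 (adjusted p from 0.0868 to 0.178). H2afy2 (-0.12, SE 0.10) and H2afj (-0.27, SE 0.21) did not pass.

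H2afy3 (chromosome 15, 62218221 to 62219332, minus strand) was the variant that rose, and GENCODE annotates it as a processed pseudogene. It had 64.9, 75.7 and 72.9 kb in the control and 133, 136 and 118 kb in the mutant libraries (0.86, SE 0.10, limma adjusted p = 3.43e-05). It lies on the other strand of the long non-coding RNA gene Pvt1. Since the use of strand is not given, reads of either gene cannot be told apart there.

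The H3.3 genes H3f3a and H3f3b, which encode the same protein, deposited also outside S phase, did not pass. H3f3a had 99.81, 100.05 and 93.43 kb in the control and 87.0, 109.6 and 110.3 kb in the mutant libraries (0.06, SE 0.10, limma adjusted p = 0.682). H3f3b had 477, 480.4 and 399 kb in the control and 361, 427 and 427 kb in the mutant libraries (-0.16, SE 0.10, limma adjusted p = 0.214). Both overlapped between groups. The summed replication-dependent H3 coverage was 3.06, 3.57 and 3.95 times that of the H3.3 genes in con1 to con3, and 5.84, 5.19 and 4.25 times in mut1 to mut3, without overlap. For all types together the ratio of replication-dependent to variant coverage was 10.98 ± 0.871 in control and 12.3 ± 0.513 in mutant kidneys, and con3 lay above mut3. Without the top member of each class the ratio was 13.5 ± 1.11 and 15.8 ± 0.789, and every mutant library lay above every control library. The H2A genes gave overlapping ratios of 3.08 ± 0.207 and 2.69 ± 0.289.

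H1fx (H1.10) was the remaining variant called lower, from 14.3 ± 3.06 to 9.80 ± 1.04 kb (-0.53, SE 0.19, limma adjusted p = 0.0429). It did not pass without con1, con2, mut1 or mut3 (adjusted p from 0.0722 to 0.17), nor when adjusted for length and GC (-0.41, limma adjusted p = 0.203). The count of variants called lower was therefore 2 in place of 4 without con1, without con2 or without mut3. H2afz and H2afx passed in every alternative fit. Of the H2afz sequence only 30.4% is unique by the same measure, so the gene its reads came from is uncertain.

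Within the Hist1 cluster, position did not separate the directions, but H2A genes in and outside Hist1 differed. All 11 H2A genes of Hist1 fell (median -0.77), while of the 5 outside it 2 fell and 1 rose (median 0.20). The Hist1 cluster on mouse chromosome 13 holds 50 of the members between 21715763 and 23934156 (mm10), in 2 stretches with a gap of 1487373 bases. In the first stretch 9 of 13 H2A and H2B genes fell and none rose, while 5 of 7 H3 and H4 genes rose and 1 fell. In the second stretch 10 of 12 H2A and H2B genes fell and none rose, while 10 of 13 H3 and H4 genes rose and none fell. Of the 49 pairs of neighbouring members 12 had opposite calls, and all 12 set an H2A or H2B gene beside an H3 or H4 gene. After the length and GC adjustment, 6 of the 25 H2A and H2B genes of the cluster fell and 1 rose, 17 of the 20 H3 and H4 genes rose and none fell, and 4 neighbouring pairs had opposite calls.

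The smallest such gap was 668 bases, between Hist1h2ab (-0.54) and Hist1h3b (0.60). Similar neighbours were Hist1h2ai (-0.77) and Hist1h3h (0.56), and Hist1h2ad (-0.91) and Hist1h3d (0.50). On chromosome 3, Hist2h2bb (-0.93) and Hist2h3b (0.51) overlap Gm20628 on the other strand and changed in opposite directions. All the sequence of both is shared with Gm20628, so the gene their reads came from is uncertain. In the adjusted fit, Hist1h2ab (-0.11) and Hist1h2ai (-0.15) did not pass, while Hist1h2ad and Hist2h2bb did.

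**Figure D4:**
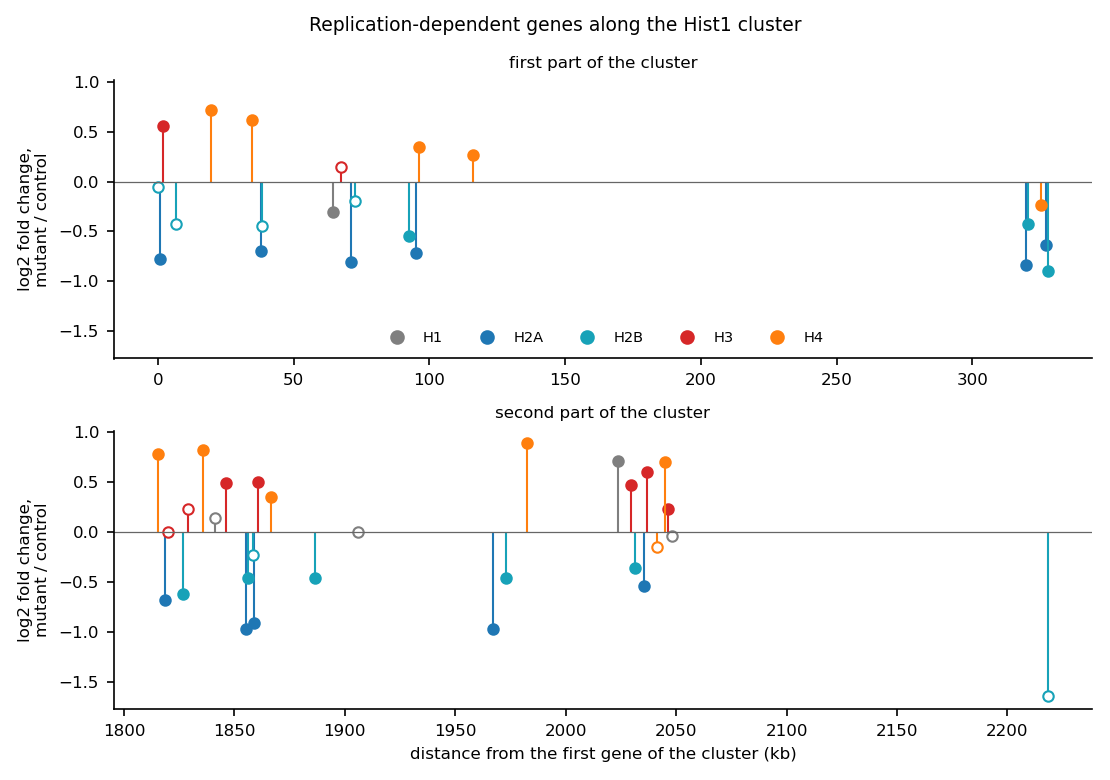
Log2 fold change (mutant over control) of the 50 Hist1 members by distance from the first gene of the cluster (kb), in its 2 stretches; filled points passed a limma adjusted p of 0.05 and colours give the histone type. Blue stems (H2A and H2B) point down and red and orange stems (H3 and H4) mostly up in both stretches, with H4 gene Hist1h4i (-0.24) as the exception that passed.

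H2A and H2B genes often lie head to head and share the stretch between their starts. Promoter windows from 250 bases before to 50 after the start were taken from RefSeq on GRCm38.p6 for the 67 members matched by gene ID. Windows on opposite strands overlapped in 8 pairs, by 252 to 279 bases, and all 8 joined an H2A to an H2B gene. In all 8 both genes had negative fold changes, and in 4 both passed. Adjusted for length and GC, both were negative in 5 pairs and both passed in none. No H3 or H4 window overlapped another in this way. The window of Hist1h2bg (-0.46; its partner Hist1h2ae, -0.97) is shown with those of an H3 and an H4 gene that rose, Hist1h3b (0.60) and Hist1h4j (0.71). Capitals mark the CCAAT box, the TATA-box core (TATAAA) and the octamer motif (ATTTGCAT), searched on either strand.
Hist1h2bg, chr13:23571150-23571449, plus strand: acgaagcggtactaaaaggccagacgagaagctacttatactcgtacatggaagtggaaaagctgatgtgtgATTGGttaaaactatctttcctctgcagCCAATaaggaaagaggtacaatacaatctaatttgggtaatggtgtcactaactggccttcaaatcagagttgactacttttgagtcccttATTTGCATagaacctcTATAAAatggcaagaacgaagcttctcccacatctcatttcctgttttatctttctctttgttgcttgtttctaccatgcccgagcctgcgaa
Hist1h3b, chr13:23752095-23752394, plus strand: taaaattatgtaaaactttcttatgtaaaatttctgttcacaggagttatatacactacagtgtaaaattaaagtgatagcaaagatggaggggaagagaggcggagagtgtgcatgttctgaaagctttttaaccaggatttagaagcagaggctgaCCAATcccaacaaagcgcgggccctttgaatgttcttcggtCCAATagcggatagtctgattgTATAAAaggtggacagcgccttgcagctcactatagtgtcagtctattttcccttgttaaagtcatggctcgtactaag
Hist1h4j, chr13:21734784-21735083, plus strand: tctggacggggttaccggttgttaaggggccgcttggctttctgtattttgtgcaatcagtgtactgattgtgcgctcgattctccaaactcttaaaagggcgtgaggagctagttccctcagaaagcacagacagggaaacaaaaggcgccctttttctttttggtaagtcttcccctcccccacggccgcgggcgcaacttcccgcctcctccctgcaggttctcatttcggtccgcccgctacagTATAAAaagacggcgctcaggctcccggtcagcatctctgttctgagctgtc

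CCAAT, the core of a common proximal promoter element, was found in the windows of all 46 matched replication-dependent H1, H2A, H2B and H3 genes and of 3 of 12 H4 genes, against 37.9% of all 27025 RefSeq windows. The TATA-box core TATAAA stood in 34 of 58 replication-dependent windows (14.2% of all) and was found in every type. The octamer ATTTGCAT was found in 6 of 16 H2A and 6 of 15 H2B windows and in none of the 5 H1, 10 H3 and 12 H4 windows, against 1.75% of all. Head-to-head pairs can count the same octamer once for each partner. These are matches of letters and not measured binding.

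The machinery around the histones did not rise with the H3 and H4 genes. Of 19 genes for transcription, processing and decay of histone mRNA 7 fell and none rose (median -0.17), or 36.8% lower against 24.6% of all genes. Slbp, which binds the stem-loop, had 50.7, 50.6 and 45.7 kb in the control and 29.5, 29.2 and 30.3 kb in the mutant libraries (-0.72, SE 0.10, limma adjusted p = 0.000178). Ncbp1, a subunit of the nuclear cap-binding complex, fell by 0.53 (limma adjusted p = 0.00149). The exonuclease gene Eri1 and Cpsf2, a subunit of the complex that cleaves histone pre-mRNA, fell by 0.40 and 0.35, and both calls were lost without con1 (0.0767 and 0.0587), that of Eri1 also without con2 (0.0875) or mut1 (0.0651). The count of 7 became 3 without con1 or con2 and 4 without mut3. Npat, a coactivator of replication-dependent histone genes, and Hinfp, a transcription factor of H4 genes, did not pass, at 0.06, SE 0.12 and 0.22, SE 0.13, and were picked after their values were seen.

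Chaperones that carry new H3 and H4 to DNA were lower in 5 of 9 genes (55.6%) and higher in none (median -0.35). Nasp, which holds soluble H3 and H4, went from 217 ± 29.7 to 124 ± 22.9 kb (-0.82, SE 0.13, limma adjusted p = 0.000461). Asf1b, another H3-H4 chaperone, and Chaf1b, a subunit of the chromatin assembly factor CAF-1, fell by 0.67 and 0.64 (limma adjusted p = 0.00378 and 0.0021), and Rbbp4, a further CAF-1 subunit, by 0.36. Of 14 genes for the deposition of variants 3 fell and none rose, and this share (21.4% lower) was near that of all genes (24.6%). Anp32e, which removes H2A.Z, fell by 0.54, Dek by 0.77, and the H3.3 chaperone gene Hira by 0.40, the last losing its call without con2, con3, mut1 or mut3 (adjusted p from 0.074 to 0.16).

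Among general chaperones 5 of 7 fell and none rose, or 71.4% lower against 24.6% of all genes. Nap1l1, a carrier of H2A and H2B, fell from 19.23 ± 0.355 to 10.96 ± 0.184 kb (-0.81, SE 0.14, limma adjusted p = 0.000583), Npm1 by 0.59 (-0.34, limma adjusted p = 0.0623, when adjusted for length and GC), and Supt16 and Ssrp1, the subunits of FACT, by 0.45 and 0.34. Genes of S phase and mitosis were lower as well. Of 43 S phase genes 30 fell and none rose (median -0.45), or 69.8% lower against 24.6% of all genes. The count of 30 became 19 without con1 or without con2, where 19.1% and 19.5% of all genes were lower. Of 26 mitosis genes 21 fell and none rose (median -0.52), or 80.8% lower. Ccne2 (-1.04), Rrm2 (-0.96) and Gins1 (-0.95) were among the largest falls in the first list, and Cdc20 (-0.98), Ndc80 (-0.88), Ccnb1 (-0.86) and Birc5 (-0.85) in the second. H3 and H4 genes thus rose in the same libraries in which most listed S phase genes fell.

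Cell type markers moved between the groups too. All 7 markers of differentiated nephron and 6 of 7 of nephron progenitors fell, and 1 of the latter rose. All 7 stromal markers and 8 of 9 leukocyte markers rose, as did 3 of 6 erythroid, 2 of 4 endothelial and 1 of 5 ureteric markers, with no falls. The ureteric share (20.0% higher) was near that of all genes (21.5%). Summed coverage was 2972 to 3709 kb in control and 751 to 838 kb in mutant libraries for nephron, and 1343 to 1422 against 3964 to 4743 kb for stroma. For leukocyte markers it was 102 to 121 against 201 to 242 kb, for erythroid markers 125 to 131 against 195 to 230 kb, for nephron progenitors 462 to 522 against 205 to 310 kb, for endothelium 778 to 831 against 944 to 984 kb, and for the ureteric lineage 221 to 235 against 225 to 243 kb. No measured marker was listed at 0. In whole kidneys fewer cells of a type and less RNA per cell cannot be told apart, and the part of these shifts in the histone changes was not tested.

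Most replication-dependent genes are short (median transcript 536.5 bases) and GC-rich (median 57.8% in exons), and 2 measurements bear on such genes. Of 173 other protein-coding genes with up to 1000 bases of exon, 29 rose (16.8%) and 65 fell (37.6%), with a median of -0.25. Of the 64 of them with at least 55% GC, 13 rose (20.3%) and 21 fell (32.8%), with a median of -0.12. The shares over all genes were 21.5% higher and 24.6% lower. The 92 snoRNA genes, which are shorter still, took 2.31, 1.88 and 1.68% of coverage in con1 to con3 and 0.63, 0.299 and 0.473% in mut1 to mut3. Beyond the adjusted fit given above, the part of gene length in the falls of H2A and H2B was not tested.

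Near-identical copies limit single genes. Of the 64 replication-dependent genes, 32 had at least 50% of their 50-base windows in no other annotated gene, and how shared reads were assigned is not given. Among these, 9 of 14 H2A and H2B genes fell and none rose, and 10 of 13 H3 and H4 genes rose and 1 fell. With length and GC adjusted, 4 of the 14 fell and 1 rose, and 10 of the 13 rose and none fell. All 16 replication-dependent H2A genes also overlap an annotated gene on the other strand, many of them short predicted ones, and Hist1h2be overlaps Hist1h1e on its own strand.

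Con1 and mut3 stood together, against genotype, in 5 histone genes. The criterion, set after the values were seen, was that both lie on the same side of the other 4 libraries with a gap above 0.3 on the log2 scale. It picked 10 of 13203 genes (0.0757%), 5 of them histone genes (6.67% of the 75). Hist1h2ba (given above) and Hist1h2bn were high in these libraries, the latter with 313, 187 and 191 kb in the control and 158, 115 and 245 kb in the mutant libraries. Low in con1 and mut3 were 3 further genes. Hist1h2bf had 96.9, 166 and 151 kb in the control and 151, 134 and 74.6 kb in the mutant libraries. Hist1h2bp had 389, 602 and 629 kb and 562, 502 and 350.4 kb, and Hist1h3f 114, 203 and 193 kb and 231, 219 and 143 kb, in the same order of libraries.

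None of the 5 genes passed between genotypes. That follows largely from the criterion, which picks genes with a wide spread within each group. The other genes picked included Marcksl1-ps4, Rai2, Slc25a53 and Ybx2. A cause was not tested. Without con1 and mut3, with 2 kidneys left per group, 12 H3 and H4 genes rose and none fell. In the same fit 21 H2A and H2B genes fell and none rose. By type, 9 H2A and 12 H2B genes fell, and 6 H3 and 6 H4 genes rose. Over all genes the calls went from 2844 higher and 3243 lower to 1739 and 1975.

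**Figure D5:**
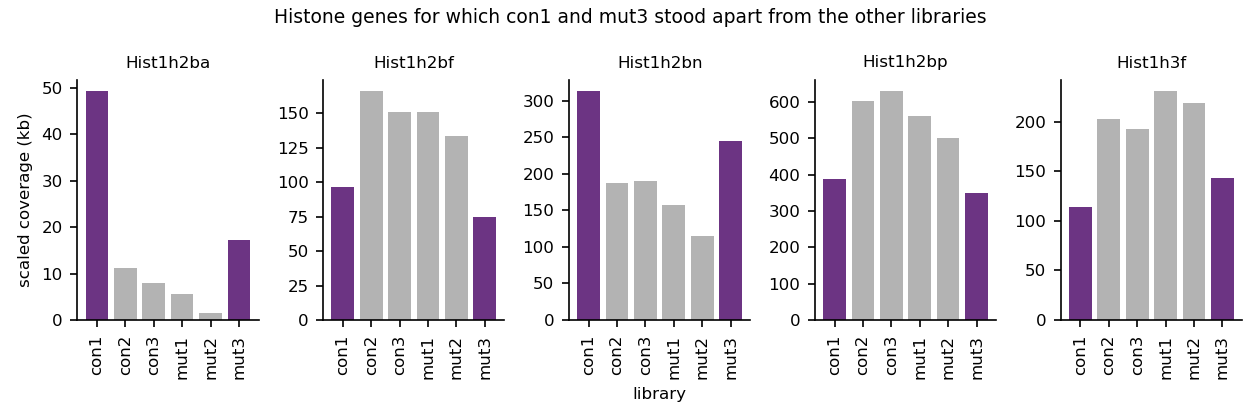
Scaled coverage (kb, axes from 0) of the 5 histone genes for which con1 and mut3 (purple) stood apart from the other 4 libraries (grey). Con1 and mut3 are highest for Hist1h2ba and Hist1h2bn and lowest for Hist1h2bf, Hist1h2bp and Hist1h3f.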

How the data were processed

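Total RNA of 6 whole kidneys was depleted of ribosomal RNA (from 1 µg of total RNA) and made into Ion Total RNA-seq v2 libraries, per the labels' protocols. The submitters' processing notes name mm10 and bedtools. For the aligner, annotation and strand setting, nothing was given in the sources used here.

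Per gene, the authors deposited a coverage signal for each library, which the values show to be bases covered plus 1, scaled to a common total of 976.284 to 976.642 Mb and not divided by length. The lowest higher group mean in the deposited table is 3402.09 units. The columns name a group and a running number, so they were assigned to groups only. A limma fit (version 3.58.1, R 4.3.3) of log2(value + 1), with a mean-variance trend and no covariates, gave two-sided p-values. Benjamini-Hochberg adjustment covered the 13203 genes, and the threshold was 0.05, after a filter of more than 1 unit in at least 3 libraries that removed 0 genes. Because the signal counts bases, no count test was used, and the number of reads is unknown. Ratio, p-value and q-value columns of the deposited table are the authors' own and are quoted for Hist3h2ba only.

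The members and lists were chosen with earlier results of these data known. Named genes are every variant, the 2 genes of highest coverage per exon base in each type, the 8 largest rises and 8 largest falls past the threshold, called members moving against most of their class, and up to 4 called genes of each list; other members and genes in the text were picked after their values were seen. Sequences, lengths and overlaps are from GENCODE M21 and RefSeq. The scripts were tested on simulated data.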

Additional observations from a re-analysis of the deposited data

How the results depend on the processing

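No paired analysis was possible because the labels give the groups no shared replicate numbers and the columns carry none. Of 731 alternatives over 57 named genes 676 left direction and call unchanged, 45 lost a call, 4 gained one and 6 changed sign, none of the last among the 48 called genes. The sign changes were H3f3a without mutant replicate 3 (-0.0011; 0.1697 at most on leaving out a library), Hist1h1a without 1 library (-0.1251 to 0.0161), and, with length and GC trends removed, H3f3b (0.0308), Hist1h1a (0.0893) and Hist1h2bl (0.59).

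Leaving out each library in turn gave 15 to 21 replication-dependent genes higher and 21 to 26 lower, 1 to 2 variants higher and 2 to 4 lower, 3 to 7 histone mRNA production genes and 19 to 32 S phase genes. Leaving out con1 and mut3 together, chosen after seeing the data, gave 1739 genes higher and 1975 lower in all, 13 replication-dependent genes higher, 12 H3 and H4 genes higher, 2 variants lower, and 2 histone mRNA production, 6 histone deposition, 10 S phase and 10 mitosis genes. With 2 libraries per group fewer samples enter. Variants called lower also numbered 2 with trimmed-mean scaling, quantile normalization or no variance trend, and the last gave 4 histone mRNA production genes. With length and GC trends removed 3 variants were higher, and 8 replication-dependent genes were lower, all 8 of type H2A or H2B. The cause was not tested. Restricting the table to genes above median coverage tested fewer genes, with 1546 higher, 1729 lower and 16 S phase genes. Members with at least 50% unique windows, likewise fewer, gave 11 higher and 11 lower replication-dependent genes, 9 H2A and H2B genes lower and 10 H3 and H4 genes higher. The effect of depth was not tested, and the lowest higher group mean in the deposited table is 3402.09 units.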
